A study of Ictidomys tridecemlineatus with 15 samples.

Results

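The mitochondrial carriers of the SLC25 family were followed in the liver of the 13-lined ground squirrel (Ictidomys tridecemlineatus) by GRO-seq, which labels RNA in isolated nuclei during a short run-on and so counts RNA polymerases engaged on a gene body rather than stored mRNA. Members were the units of the deposited count table that carry a gene name beginning with Slc25a and a digit. These were 30 of the 6324 units. Of the 30, 15 were single-gene units, out of 4705 such units, and 15 were merged units, out of 1619, in which the authors joined a carrier with overlapping genes. The merged units are described apart, because their reads cannot be assigned to the carrier. Among 48 family symbols searched for, 18 had no unit and are not analysed here.

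Livers came from laboratory-housed females of a university breeding colony, each library from a separate animal. Per the study's methods, body temperature was read from an implanted device or with a rectal probe. SA animals were summer active, before hibernation, and IBA animals were interbout aroused, the warm interval between bouts of torpor. Ent animals were cooling during entrance into torpor, ET animals were in early torpor and LT animals in late torpor with a low body temperature. SA, IBA, Ent and ET had 3 libraries each and LT had 2 (replicates 1 and 3). LT replicate 2 has no column in the count table. The authors describe it as relatively poor in quality and left it out once principal component analysis also marked it as an outlier. Below, warm means SA and IBA together (6 libraries) and cold means ET and LT together (5 libraries), as shorthand for the torpid states. Positions are on the HiC_Itri_2 assembly, as the count table gives them. Collection season and state overlap. A collection season here joins summer and winter months, as the study's methods place SA in August and LT in January and February. The 3 ET animals came from a collection season that holds no other library. Both LT animals came from that of SA replicate 1 and Ent replicates 1 and 2. The 3 IBA animals shared a collection season with SA replicates 2 and 3 and Ent replicate 3. SA and LT animals of the same collection season were thus taken months apart. For ET, season and state cannot be told apart.

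Most SLC25 proteins sit in the inner mitochondrial membrane and exchange one metabolite for another, and so link the matrix to the cytosol. In liver they serve ATP export, the urea cycle, gluconeogenesis, fatty acid oxidation and synthesis, heme synthesis and the supply of cofactors. The ADP/ATP carriers exchange ATP made in the matrix for cytosolic ADP. The genes lie in the nucleus, and the proteins reach the inner membrane through the TOM and TIM complexes.

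Total counts per library ranged from 3713883 to 8884763, and a single-gene member received between 26 and 6159 reads in a library. Values are given as CPM, read counts scaled to a common library size after TMM normalization. A rise or fall is thus relative to the other units of a library. The authors state that library-size scaling hides changes in overall transcription, which earlier work found nearly stopped in torpor. They also propose that polymerases run past gene ends in torpor, and they lengthened gene bodies where transcribed segments reached further downstream. The part of such reads in the cold levels was not tested. Values by library are listed in replicate order. State means are given with their SD over 3 animals (n = 2 in LT). Pairs of states were compared in edgeR's quasi-likelihood test over all 6324 units with Benjamini-Hochberg adjustment, and a unit was called at an adjusted p at or under 0.001. Each p-value sets a difference between states against the spread between animals, estimated over all states together. The single-gene members together took 0.146 to 0.174% of the counts in SA libraries, 0.150 to 0.168% in IBA, 0.178 to 0.211% in Ent, 0.191 to 0.206% in ET and 0.154 to 0.175% in LT. Of the hepatocyte marker list, 6 genes had a single-gene unit, and their summed level was 9130 to 20159 CPM in SA, 8725 to 13360 in IBA, 7122 to 8184 in Ent, 3688 to 5938 in ET and 4692 to 6987 in LT. In the cold 4 of the 6 were called lower, against 18.7% of all single-gene units. Of the sinusoidal endothelial list, 3 genes had a unit, with summed levels of 186 to 241 CPM in SA, 199 to 228 in IBA, 203 to 241 in Ent, 124 to 203 in ET and 135 to 148 in LT. Of these, 1 was called lower in the cold, against the same 18.7%. Sox9, of the cholangiocyte list, was also called lower (26 to 41 CPM in SA, 16.5 to 35.9 in IBA, 29.8 to 46.1 in Ent, 10.9 to 18.1 in ET and 7.07 to 10.1 in LT). The Kupffer cell and leukocyte, stellate and erythroid lists had 0 single-gene units. The part of these markers in the results below was not tested, and in bulk liver fewer cells of a type and less RNA per cell cannot be told apart.

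Between warm and cold livers 8 of the 15 single-gene carriers were called, against 37% of all single-gene units. Of these 7 were higher in the cold: Slc25a4 and Slc25a5 (ADP/ATP carriers), Slc25a29 (basic amino acids), Slc25a38 (glycine), Slc25a16 (linked to coenzyme A), Slc25a28 (iron) and Slc25a46 (an outer membrane member). The other, Slc25a27, related to the uncoupling proteins, was lower. The median log2 fold change of the 15 was 0.65, against -0.07 over all single-gene units, of which 859 (18.3%) were called higher and 881 (18.7%) lower. With uniquely mapped reads as the library size, the median of all single-gene units moved to 0.16 and higher calls made up 66.6% of all calls in place of 49.4%, and the same 8 carriers were called in the same directions. In 7 of the 15 no cold library overlapped a warm one, 6 higher and 1 lower, against 40.5% of all single-gene units. Across the 5 states together 5 of 15 were called, Slc25a4, Slc25a5, Slc25a27, Slc25a29 and Slc25a38, against 26.4% of all single-gene units. Slc25a16 fell just outside the threshold in that test (edgeR adjusted p = 0.00104).

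**Figure D1:**
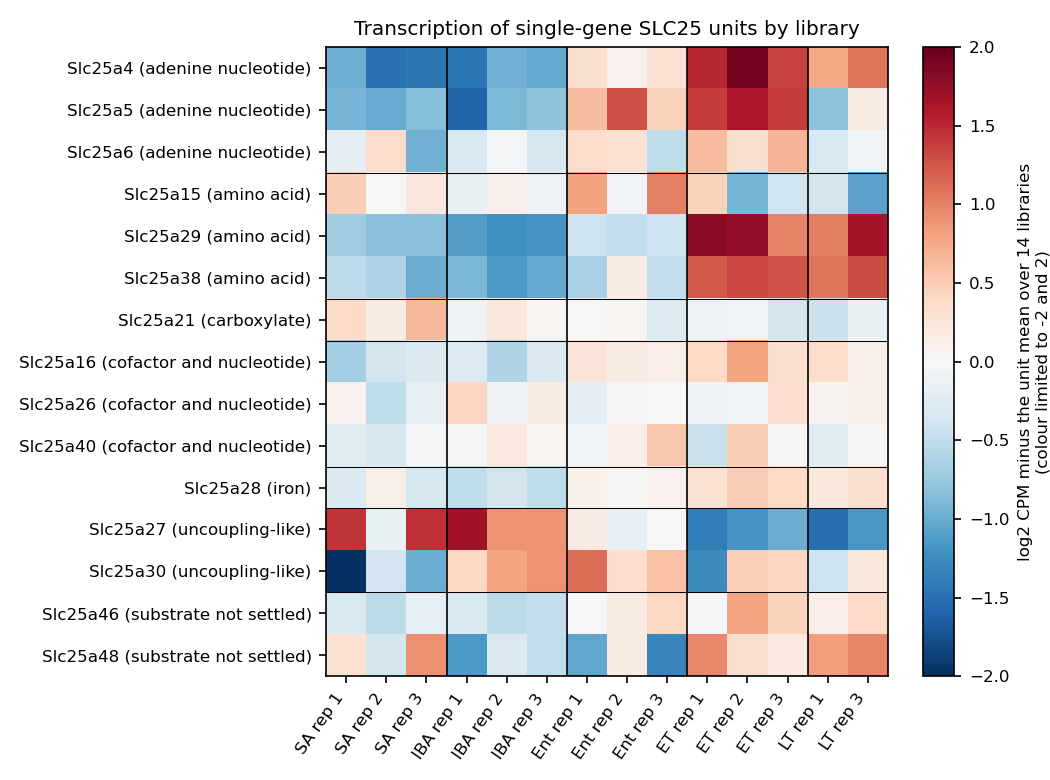
Heat map of log2 CPM in each of 14 libraries (columns, grouped by state) for 15 single-gene SLC25 units (rows, grouped by substrate), each row centred on its own mean, with colour limited to -2 and 2. Slc25a4, Slc25a29 and Slc25a38 are red in the 5 cold libraries and blue in the 6 warm ones, whereas Slc25a27 is blue in the cold libraries.

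Of the 3 ADP/ATP carriers, Slc25a4 and Slc25a5 rose in the cold and Slc25a6 did not pass the test. Slc25a4, known as the heart and muscle form, lies on Itri17:33975481-33987935 on the plus strand. Slc25a4 stood at 26.0, 18.2 and 18.8 CPM in the 3 SA livers, 18.8, 26.3 and 25.1 in IBA and 64.0, 54.3 and 62.6 in Ent. In ET the values were 145, 192 and 129.9 CPM and in LT 87.1 and 108. Every cold library exceeded every Ent library, and every Ent library exceeded every warm one. The cold level was 5.55 times the warm level (log2 fold change 2.47, SE 0.15, edgeR adjusted p = 1.9e-07). From Ent to ET Slc25a4 was called higher (log2 fold change 1.37, SE 0.19, edgeR adjusted p = 0.00071), and from IBA to LT as well (log2 fold change 2.05, SE 0.22, edgeR adjusted p = 2.3e-05). The IBA to Ent difference did not pass 0.001 (log2 fold change 1.36, SE 0.20, edgeR adjusted p = 0.0032).

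Slc25a5, the widely expressed form, lies on Itri10:90552955-90556984 on the plus strand. The CPM of Slc25a5 were 12.3, 11.6 and 13.0 in SA, 7.67, 12.5 and 13.4 in IBA and 35.9, 56.2 and 32.0 in Ent. ET libraries had 60.8, 71.3 and 61.3 CPM and LT libraries 13.2 and 26.1. The 3 Ent libraries and the 3 ET libraries stood above all warm ones, while LT replicate 1 lay within the range of IBA. Its cold to warm difference was called (log2 fold change 1.59, SE 0.22, edgeR adjusted p = 3.8e-05), and rested on ET: from ET to LT the log2 fold change was -1.71 (SE 0.33, edgeR adjusted p = 0.054), with no overlap between the groups, and from IBA to LT it was 0.79 (edgeR adjusted p = 0.057). DESeq2 called the fall from ET to LT. The IBA to Ent log2 fold change was 1.86 (SE 0.29, edgeR adjusted p = 0.0033). Ent stood at 102% of the log2 difference between warm and cold, but the cold mean joins a high ET with a lower LT. Mean log2 CPM was 5.34 in Ent, 6.01 in ET and 4.24 in LT, so Ent was below ET. Here and below, such percentages come from mean log2 CPM over libraries, not from the edgeR values.

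Slc25a6, the third ADP/ATP carrier, lies on Itri21:575773-582809 on the minus strand. In turn Slc25a6 had 55.9, 81.7 and 32.6 CPM in the SA libraries, 51.2, 62.3 and 49.8 in IBA and 81.8, 78.0 and 44.5 in Ent. It had 97.0, 78.6 and 102 CPM in ET and 50.9 and 61.1 in LT. SA, Ent and LT overlapped, and the cold to warm difference was not called (log2 fold change 0.38, SE 0.22, edgeR adjusted p = 0.15). Both LT libraries lay below the 3 ET libraries for Slc25a4, Slc25a5 and Slc25a6 alike, and these were the members whose ET and LT groups did not overlap (3 of 15, against 24.6% of all single-gene units).

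Per kb of unit, the 3 ADP/ATP carriers summed to 12.8 ± 3.30 CPM per kb in SA, 12.4 ± 1.70 in IBA, 24.8 ± 5.11 in Ent, 41.6 ± 2.31 in ET and 20.6 ± 4.46 in LT (± SD of 3 animals, or 2 for LT). Slc25a6 held 61.0 ± 11.7% of that sum in SA, 62.6 ± 5.54% in IBA, 38.6 ± 6.31% in Ent, 31.7 ± 5.74% in ET and 38.9 ± 3.45% in LT, with the same n. Slc25a4 held 13.7 ± 3.98% in SA, 15.1 ± 1.05% in IBA and 20.3 ± 5.61% in Ent, then 29.9 ± 4.50% in ET and 38.1 ± 2.57% in LT. Slc25a5 held 25.2 ± 8.36% in SA, 22.2 ± 4.49% in IBA, 41.1 ± 6.39% in Ent, 38.4 ± 1.42% in ET and 22.9 ± 6.03% in LT. The largest mean share per kb was thus that of Slc25a6 in SA, IBA and LT and that of Slc25a5 in Ent and ET, with Slc25a4 and Slc25a6 close to each other in LT. These genes are close in coding sequence, and the authors counted uniquely aligned reads, so reads shared by near-identical copies were not counted for any of them. The lengths are those of the units, with any downstream lengthening by the authors, and its part in these shares was not tested.

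**Figure D2:**
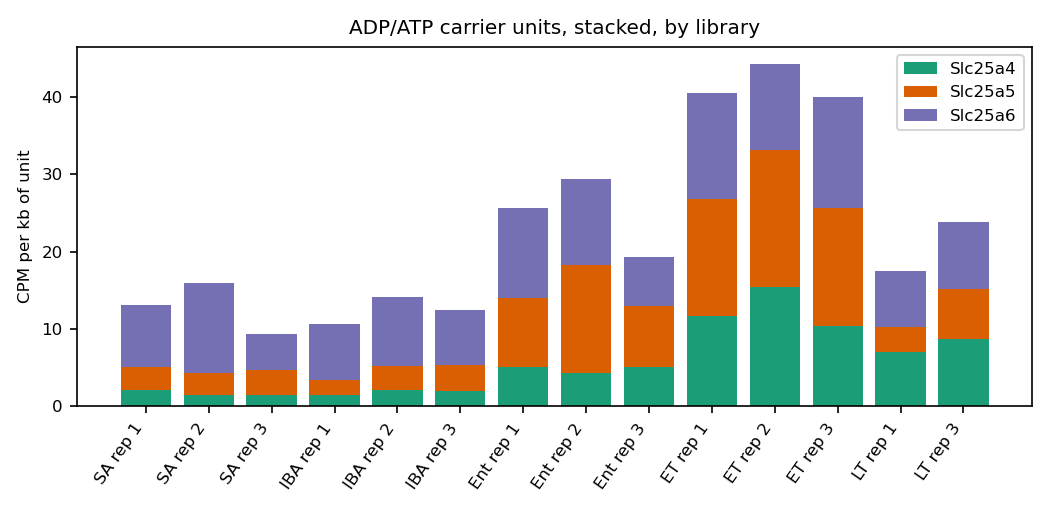
Stacked bars of the ADP/ATP carrier units in each library, in CPM per kb of unit (vertical axis from 0). The 3 ET libraries reach 40.1 to 44.3 CPM per kb and the 6 warm ones 9.35 to 15.9.

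Of 3 single-gene carriers of amino acids, Slc25a29 and Slc25a38 rose and Slc25a15 did not pass the test. Slc25a29 transports arginine and lysine and lies on Itri5:6117131-6132202 on the plus strand. Slc25a29 stood at 35.2, 32.2 and 32.3 CPM in the 3 SA livers, 26.4, 24.7 and 25.4 in IBA and 42.9, 40.7 and 43.1 in Ent. In ET the values were 200.3, 194 and 114 CPM and in LT 117 and 181. Within SA, IBA and Ent the libraries were close together, and the lowest cold library (114 CPM) was far above the highest Ent library (43.1 CPM). The cold level was 5.45 times the warm level (log2 fold change 2.45, SE 0.16, edgeR adjusted p = 2.4e-07). It was the member with the largest change from Ent to ET (log2 fold change 2.00, SE 0.21, edgeR adjusted p = 0.00027), and it was called from IBA to LT (log2 fold change 2.55, SE 0.23, edgeR adjusted p = 1.2e-05). Ent had covered 22.1% of the warm to cold log2 difference.

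Slc25a38 brings glycine into the matrix for heme synthesis and lies on Itri2:195464988-195482593 on the plus strand. The CPM of Slc25a38 were 9.64, 9.08 and 7.01 in SA, 7.39, 6.27 and 6.86 in IBA and 8.84, 15.6 and 9.93 in Ent. ET libraries had 32.5, 35.0 and 33.2 CPM and LT libraries 29.0 and 34.2. ET and LT overlapped each other and lay above all other libraries, with Ent replicate 2 the highest of the rest. Its cold level was 4.27 times the warm level (log2 fold change 2.09, SE 0.17, edgeR adjusted p = 6.5e-07), with log2 fold change 1.55, SE 0.22, edgeR adjusted p = 0.0007 from Ent to ET and log2 fold change 2.21, SE 0.25, edgeR adjusted p = 3.1e-05 from IBA to LT. Ent had covered 25.5% of the difference.

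Slc25a15 exchanges ornithine for citrulline in the urea cycle, lies on Itri4:161615714-161649012 on the minus strand and had the highest level per kb of the single-gene members (14.7 CPM per kb over all libraries). In turn Slc25a15 had 635, 456 and 531 CPM in the SA libraries, 409.5, 487 and 418 in IBA and 792, 436 and 913 in Ent. It had 621, 239 and 345 CPM in ET and 351 and 216 in LT. Replicates of Ent and of ET were far apart, and all states overlapped at least one other. No comparison was called, and the warm to cold difference was log2 fold change -0.53, SE 0.25, edgeR adjusted p = 0.086.

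**Figure D3:**
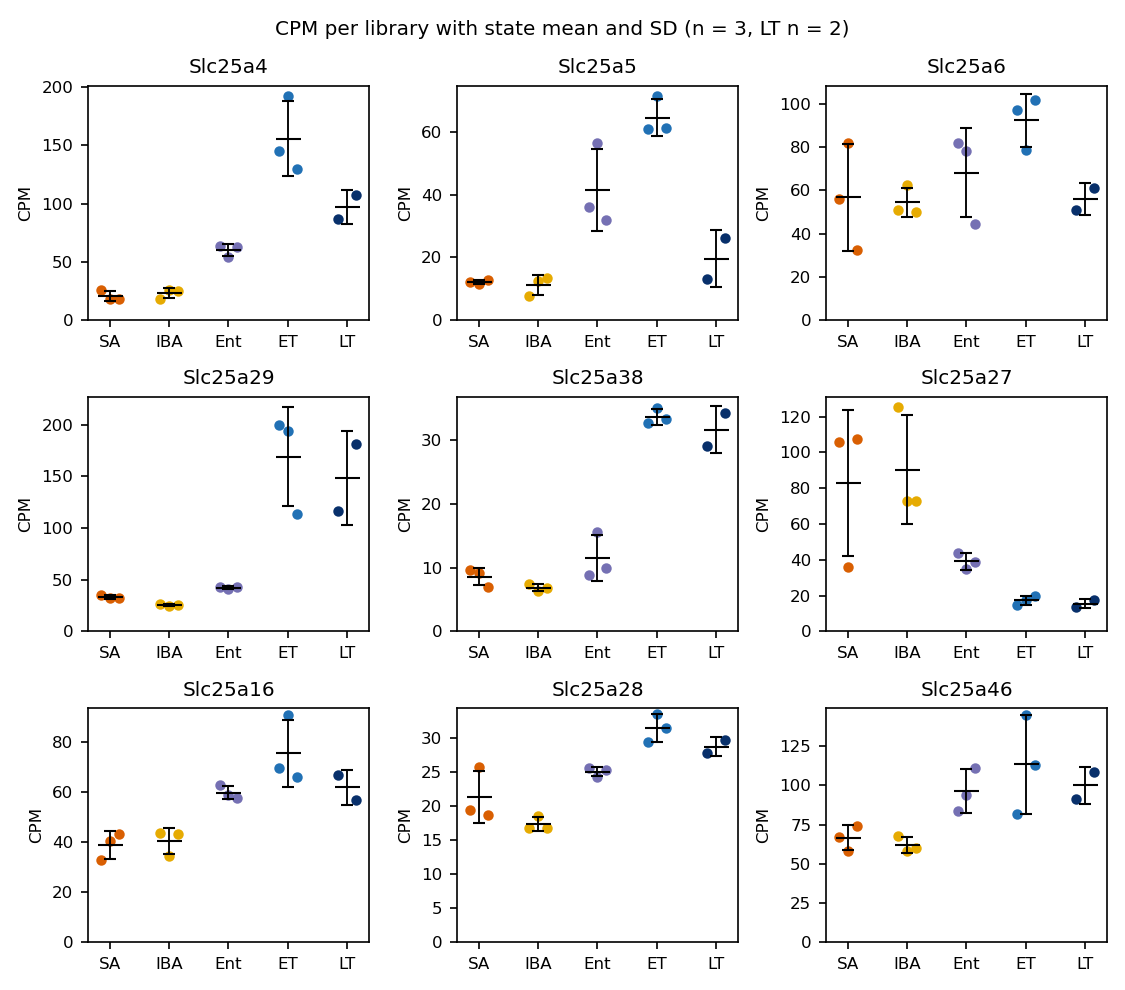
CPM (vertical axes from 0) in each library by state for 9 single-gene members; the short horizontal line is the state mean and the bar its SD, with n = 3 and n = 2 in LT. Slc25a29 and Slc25a38 step up between Ent and ET, Slc25a4 has higher values in Ent than in the warm states and higher again in ET, and Slc25a5 is high in Ent and ET and low again in LT.

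Among the single-gene carriers of cofactors and iron, Slc25a16 and Slc25a28 were called higher in the cold, and Slc25a26 and Slc25a40 were not called. Slc25a16, linked to coenzyme A uptake, lies on Itri1:61300920-61342305 on the plus strand. Slc25a16 stood at 32.8, 40.7 and 43.4 CPM in the 3 SA livers, 43.8, 34.7 and 43.3 in IBA and 62.8, 59.0 and 57.8 in Ent. In ET the values were 69.8, 90.7 and 65.9 CPM and in LT 67.0 and 56.9. All Ent and cold libraries lay above all warm ones, and the cold to warm difference was called (log2 fold change 0.78, SE 0.12, edgeR adjusted p = 0.00012). Slc25a28 (mitoferrin 2, an iron importer) lies on Itri1:34423711-34433846 on the plus strand. The CPM of Slc25a28 were 19.5, 25.9 and 18.8 in SA, 16.8, 18.6 and 16.8 in IBA and 25.6, 24.3 and 25.3 in Ent. ET libraries had 29.5, 33.6 and 31.6 CPM and LT libraries 27.8 and 29.8. The cold libraries exceeded all warm ones, the Ent libraries fell just below SA replicate 2, and the difference was called (log2 fold change 0.65, SE 0.12, edgeR adjusted p = 0.00039). Ent had covered 74.0% of the difference for Slc25a16 and 58.4% for Slc25a28. The call of Slc25a16 was lost without LT replicate 1, and that of Slc25a28 without SA replicate 1 or 3, IBA replicate 1 or 3, ET replicate 3 or either LT library.

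Slc25a40 transports glutathione into the matrix and lies on Itri2:26965302-27013430 on the minus strand. In turn Slc25a40 had 69.2, 63.8 and 79.7 CPM in the SA libraries, 80.4, 93.2 and 84.1 in IBA and 78.4, 89.6 and 118 in Ent. It had 59.8, 114 and 79.3 CPM in ET and 70.6 and 83.2 in LT. Its states overlapped, with a warm to cold difference of log2 fold change 0.04, SE 0.16, edgeR adjusted p = 0.83. Slc25a26, which imports S-adenosylmethionine, the methyl donor, had mean CPM of 143 ± 28.7 (SA), 183 ± 34.7 (IBA), 154 ± 9.07 (Ent), 169 ± 30.3 (ET) and 173 ± 3.37 (LT). It also was not called in any comparison (warm to cold log2 fold change 0.08, SE 0.13, edgeR adjusted p = 0.61). Slc25a21, the oxodicarboxylate carrier of lysine and tryptophan breakdown and the one single-gene carboxylate carrier, lies on Itri5:47169727-47651523 on the minus strand. Slc25a21 stood at 511, 436 and 617 CPM in the 3 SA livers, 367, 453 and 402 in IBA and 389, 402 and 326 in Ent. In ET the values were 367, 375 and 303 CPM and in LT 292 and 359. The mean was highest in SA and lowest in LT, neighbouring states overlapped, and the warm to cold difference of log2 fold change -0.45, SE 0.12, edgeR adjusted p = 0.0052 did not pass 0.001.

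Of the 2 carriers related to the uncoupling proteins, Slc25a27 was called lower in the cold and Slc25a30 was not called. Slc25a27 lies on Itri8:50263343-50286140 on the plus strand. The CPM of Slc25a27 were 106, 35.8 and 107 in SA, 125, 73.0 and 72.8 in IBA and 44.0, 34.8 and 38.7 in Ent. ET libraries had 15.0, 17.3 and 19.6 CPM and LT libraries 13.8 and 17.4. Cold libraries lay below every other library, and SA replicate 2 lay among the Ent libraries. The warm level was 5.27 times the cold level (log2 fold change -2.40, SE 0.28, edgeR adjusted p = 1.1e-05). It was called from IBA to LT (log2 fold change -2.53, SE 0.43, edgeR adjusted p = 0.00044), a call lost without IBA replicate 1 or either LT library, and Ent had covered 45.9% of the warm to cold difference. Slc25a30 lies on Itri4:155620951-155643716 on the plus strand. In turn Slc25a30 had 22.9, 78.9 and 51.8 CPM in the SA libraries, 138, 178 and 192 in IBA and 224, 129.7 and 155 in Ent. It had 43.3, 143 and 139 CPM in ET and 77.2 and 119 in LT. SA was below IBA in each library (log2 fold change 1.73, SE 0.46, edgeR adjusted p = 0.05), ET replicate 1 stood apart from the other ET libraries, and warm to cold was not called (log2 fold change 0.15, SE 0.34, edgeR adjusted p = 0.72).

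Of the members whose substrate is not settled, Slc25a46 acts in mitochondrial shape and lipid transfer at the outer membrane and lies on Itri1:156400587-156433474 on the minus strand. Slc25a46 stood at 67.2, 58.3 and 74.3 CPM in the 3 SA livers, 67.6, 58.1 and 60.0 in IBA and 83.4, 93.9 and 111 in Ent. In ET the values were 82.0, 145 and 113 CPM and in LT 91.6 and 109. The lowest cold library exceeded the highest warm one, and the Ent libraries lay within the cold range. Its difference was called (log2 fold change 0.73, SE 0.14, edgeR adjusted p = 0.00073), with 79.3% of it reached in Ent. The call was kept in 3 of the 14 fits that each left out a library, those without Ent replicate 1 or 3 or ET replicate 1. Slc25a48, linked to choline, had mean CPM of 45.2 ± 19.3 (SA), 22.9 ± 6.59 (IBA), 23.3 ± 13.7 (Ent), 50.2 ± 15.1 (ET) and 65.2 ± 4.18 (LT). It was not called (log2 fold change 0.82, SE 0.30, edgeR adjusted p = 0.028), and its warm range of 15.6 to 65.5 CPM overlapped the cold range of 39.9 to 68.2 CPM.

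**Figure D4:**
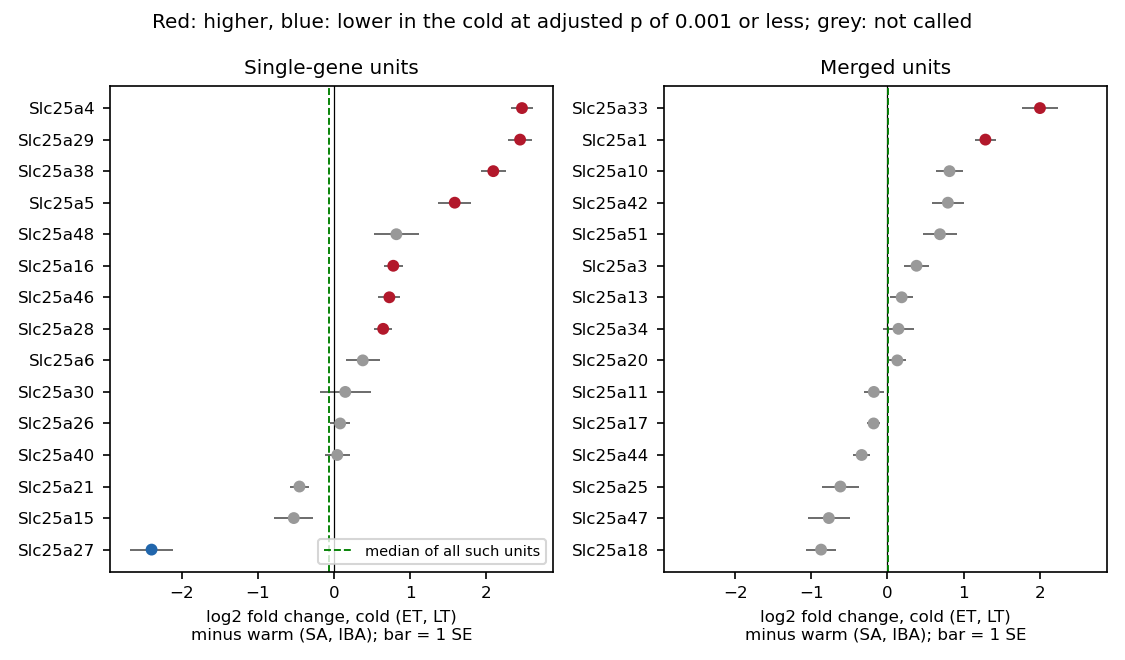
Log2 fold change between cold (ET and LT) and warm (SA and IBA) with 1 SE for 15 single-gene and 15 merged units, named by their SLC25 gene; red and blue points are called higher and lower, grey points are not called. The single-gene units run from -2.40 (Slc25a27) to 2.47 (Slc25a4), and the dashed line is the median of all such units.

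The steps between neighbouring states divide the changes unevenly. From SA to IBA 0 of 15 members were called by edgeR (0.0213% of all single-gene units), 3 of 15 had an unadjusted p at or under 0.05 (23.4% of all single-gene units), and DESeq2 called 0 (3.72%). From IBA to Ent edgeR called 0 (0.0425% of all single-gene units), while 8 of 15 members had an unadjusted p at or under 0.05 (33.4% of all single-gene units) and the same 8 an adjusted p at or under 0.05 (16.7%), 7 higher and 1 lower. DESeq2 called 2, Slc25a4 and Slc25a5 (6.99%). The median of the 15 was 0.53 for this step, against -0.02 over all single-gene units. From Ent to ET 3 were called, Slc25a4, Slc25a29 and Slc25a38, each higher, against 2.3% of all single-gene units called in either direction and 1.13% called higher. Higher calls made up 49.1% of all calls in this step, and 71.6% with uniquely mapped reads as the library size, and these 3 members were called with both. With upper-quartile scaling they made up 38.1%, and Slc25a38 was no longer called. This count fell to 0 without Ent replicate 1 or 2 or ET replicate 1 or 2, and to 1 (Slc25a29) without Ent replicate 3, ET replicate 3, IBA replicate 2 or 3 or either LT library, and was 2 without IBA replicate 1. Fitted on the Ent and ET libraries alone it was also 0. The count over all single-gene units fell with it, from 108 to between 0 and 7 in the 4 fits that left 0 members, and to 0 with Ent and ET alone. Over all alternatives the log2 fold change ranged from 1.86 to 2.22 for Slc25a29, from 1.39 to 1.85 for Slc25a38 and from 1.19 to 1.49 for Slc25a4. From ET to LT edgeR called 0 of the members and 0% of all single-gene units. Here 2 members had an unadjusted p at or under 0.05 (9.27% of all single-gene units) and DESeq2 called 1, Slc25a5 (0.701%). From IBA to LT 4 were called (Slc25a4, Slc25a29 and Slc25a38 higher, Slc25a27 lower), against 17.6% of all single-gene units (9.46% higher, 8.18% lower). With uniquely mapped reads as the library size higher calls went from 53.6% to 69.8% of all calls, and the same 4 members were called. With season as a covariate Slc25a38 and Slc25a27 no longer passed (log2 fold change 1.92 and -2.82, edgeR adjusted p = 0.0016 and 0.0026) and 2 members were left, against 5.78% of all single-gene units. In limma-voom Slc25a27 did not pass (-2.47, adjusted p = 0.0017).

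One collection season held SA replicate 1, Ent replicates 1 and 2 and both LT libraries, and no IBA or ET library. With its warm arm a single SA animal, the log2 differences between LT and that animal are given as values only, for members already called on these libraries among others: 2.08 for Slc25a29, 1.90 for Slc25a4, 1.71 for Slc25a38, 0.92 for Slc25a16, 0.67 for Slc25a5, 0.57 for Slc25a46, 0.56 for Slc25a28 and -2.76 for Slc25a27. No single-gene unit passed 0.001 in that fit, so it says nothing about the carriers' calls. The value of Slc25a5 compares with 1.59 over all warm and cold libraries. Between the 2 Ent and both LT libraries of the same collection season, a comparison chosen after seeing the data, 0 members and 0% of all single-gene units were called. There Slc25a29 had a log2 fold change of 1.83 toward LT (SE 0.24, edgeR adjusted p = 0.0086), Slc25a38 of 1.38 (SE 0.34, adjusted p = 0.033) and Slc25a4 of 0.72 (SE 0.19, adjusted p = 0.039). Values were negative for Slc25a27 (-1.34, SE 0.23, edgeR adjusted p = 0.015), Slc25a5 (-1.23, SE 0.39, adjusted p = 0.067) and Slc25a15 (-1.11, SE 0.35, adjusted p = 0.066). Slc25a16, Slc25a28 and Slc25a46 lay between 0.02 and 0.20. In the fit of all 14 libraries Slc25a29 was the 1 member called between Ent and LT (1.82, SE 0.23, edgeR adjusted p = 0.00038), against 2.38% of all single-gene units.

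Of the 15 single-gene members, 2 had another unit starting within 5000 nt upstream, in both cases on the opposite strand, so that the starts face away from each other. Slc25a29 and the merged unit holding Slc25a47, an orphan carrier of liver, lie 1184 nt apart on Itri5, counted between the units as deposited, from which the first 500 nt of each gene had been removed. The CPM of the merged unit were 651, 548 and 1231 in SA, 850.0, 1716 and 1406 in IBA and 1054, 805 and 427 in Ent. ET libraries had 758, 604 and 496 CPM and LT libraries 551 and 640.0. The merged unit was not called, and its libraries overlapped between warm and cold: its cold to warm difference was log2 fold change -0.77, SE 0.28, edgeR adjusted p = 0.028, against 2.45 for Slc25a29. Slc25a27 lies 1147 nt from CYP39A1_like, named for a cytochrome P450 of bile acid synthesis, which had mean CPM of 399 ± 55.9 (SA), 441 ± 75.6 (IBA), 342 ± 73.2 (Ent), 253 ± 31.7 (ET) and 222 ± 7.35 (LT). Both units of that pair were called lower in the cold, CYP39A1_like with a log2 fold change of -0.82 (SE 0.14, edgeR adjusted p = 0.0002) and Slc25a27 with -2.40. The counts do not show whether either pair shares regulatory sequence.

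**Figure D5:**
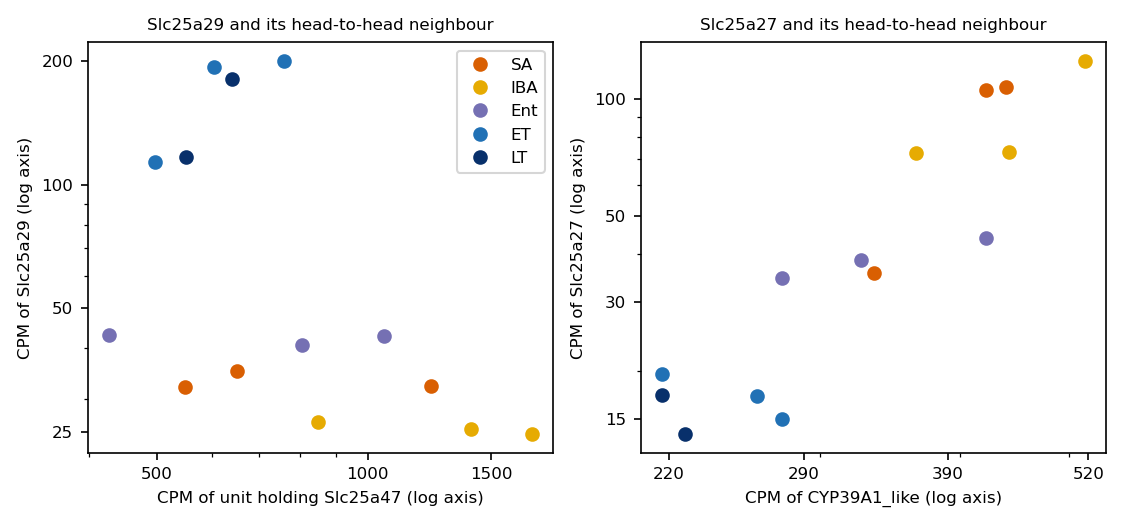
CPM of Slc25a29 against the merged unit holding Slc25a47 (left) and of Slc25a27 against CYP39A1_like (right), both axes logarithmic, 1 point per library coloured by state. The 5 cold libraries are above 110 CPM on the vertical axis on the left and below 20 CPM on the right.

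Among the 15 merged units 2 were called between warm and cold, both higher, against 34.2% of all merged units, and the same 2 across the 5 states together, against 22.8%. These are the units holding Slc25a1 and Slc25a33. The unit of Slc25a1, the citrate carrier that supplies fatty acid synthesis, had mean CPM of 109 ± 22.3 (SA), 92.3 ± 16.6 (IBA), 162 ± 19.5 (Ent), 251 ± 30.3 (ET) and 240.0 ± 26.7 (LT). Cold libraries exceeded all warm ones (log2 fold change 1.29, SE 0.13, edgeR adjusted p = 4.5e-06). It was also called from IBA to LT (log2 fold change 1.38, SE 0.20, edgeR adjusted p = 0.00015), the 1 merged member called there, against 16.8% of all merged units. The unit of Slc25a33, a pyrimidine nucleotide carrier, which also holds Tmem201, had mean CPM of 77.1 ± 14.4 (SA), 185 ± 24.9 (IBA), 385 ± 161 (Ent), 471 ± 171 (ET) and 489 ± 129 (LT). Its libraries in the cold lay above all warm ones (log2 fold change 2.01, SE 0.24, edgeR adjusted p = 1.2e-05).

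The 13 other merged units were not called between warm and cold. Among carboxylate carriers, the unit of Slc25a10 (dicarboxylates, merged with Mrpl12 and Hgs) had mean CPM of 255 ± 5.41 (SA), 177 ± 36.9 (IBA), 206 ± 60.5 (Ent), 385 ± 119.5 (ET) and 363 ± 60.8 (LT), and the unit of Slc25a11 (oxoglutarate and malate, merged with Pfn1) had mean CPM of 187 ± 16.7 (SA), 171 ± 24.9 (IBA), 166 ± 41.1 (Ent), 166 ± 11.2 (ET) and 151 ± 3.77 (LT). Their warm to cold log2 fold changes were 0.82 (edgeR adjusted p = 0.0017) and -0.18 (adjusted p = 0.24). The unit of Slc25a20, the carnitine/acylcarnitine carrier of fatty acid oxidation, merged with Prkar2a, had mean CPM of 217 ± 26.6 (SA), 201 ± 4.92 (IBA), 168 ± 36.4 (Ent), 232 ± 21.2 (ET) and 224 ± 11.7 (LT), with a difference of 0.13 (edgeR adjusted p = 0.33). The unit of Slc25a3, the phosphate carrier, had mean CPM of 123 ± 12.3 (SA), 97.9 ± 2.93 (IBA), 124 ± 42.6 (Ent), 147 ± 25.1 (ET) and 139 ± 14.9 (LT) and a difference of 0.38 (edgeR adjusted p = 0.058).

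For amino acids, the unit of Slc25a13, the liver aspartate/glutamate carrier of the malate-aspartate shuttle, had mean CPM of 1007 ± 299.9 (SA), 1362 ± 51.3 (IBA), 1355 ± 87.6 (Ent), 1287 ± 136 (ET) and 1382 ± 111 (LT). The unit of Slc25a18, a glutamate carrier merged with CECR2, had mean CPM of 418 ± 60.2 (SA), 406 ± 137 (IBA), 399.6 ± 111 (Ent), 199 ± 21.2 (ET) and 254 ± 57.8 (LT), and the unit of Slc25a44, the carrier of branched-chain amino acids, had mean CPM of 93.9 ± 4.27 (SA), 70.1 ± 3.23 (IBA), 57.2 ± 13.0 (Ent), 62.9 ± 4.72 (ET) and 65.3 ± 1.12 (LT). Their warm to cold log2 fold changes were 0.19, -0.87 and -0.34 (edgeR adjusted p = 0.29, 0.0016 and 0.021). The unit of Slc25a25, a calcium-regulated ATP-Mg/phosphate carrier, had mean CPM of 888 ± 138 (SA), 1042 ± 413 (IBA), 1330.1 ± 283 (Ent), 714 ± 283 (ET) and 549 ± 107 (LT) and a difference of -0.62 (edgeR adjusted p = 0.043).

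Among carriers of cofactors, the unit of Slc25a42 (coenzyme A) had mean CPM of 268 ± 63.9 (SA), 205 ± 75.4 (IBA), 263 ± 68.3 (Ent), 448 ± 99.9 (ET) and 371 ± 34.3 (LT), the unit of Slc25a51 (NAD) had mean CPM of 38.4 ± 2.41 (SA), 33.3 ± 5.82 (IBA), 55.8 ± 5.10 (Ent), 70.6 ± 40.4 (ET) and 47.3 ± 0.40 (LT), and the unit of Slc25a17, a peroxisomal member, had mean CPM of 279 ± 17.3 (SA), 284 ± 17.8 (IBA), 239 ± 7.16 (Ent), 244 ± 12.5 (ET) and 252 ± 39.3 (LT). Their differences were 0.79, 0.69 and -0.18 (edgeR adjusted p = 0.0047, 0.015 and 0.076). The unit of Slc25a34, an orphan carrier merged with Tmem82, had mean CPM of 49.6 ± 2.47 (SA), 37.7 ± 9.38 (IBA), 43.8 ± 15.1 (Ent), 50.3 ± 5.13 (ET) and 45.4 ± 14.1 (LT) and a difference of 0.14 (edgeR adjusted p = 0.54).

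Genes that work with the carriers were read from 3 lists. Of other carriers and channels of mitochondria, 7 genes had a single-gene unit and 3 were called both across the 5 states and between warm and cold, against 26.4% and 37% of all single-gene units in those tests. Each was higher in the cold: Mtch1 (log2 fold change 1.0, SE 0.15, edgeR adjusted p = 8.9e-05), Vdac1 (log2 fold change 0.70, SE 0.09, edgeR adjusted p = 2.7e-05) and Vdac2 (log2 fold change 0.70, SE 0.09, edgeR adjusted p = 1.6e-05). Vdac1 and Vdac2 are the pores of the outer membrane through which carrier substrates pass, and Mtch1 is an outer membrane relative of the family. Of the import route, 3 genes had a unit and 2 were called in both tests, both higher in the cold: Timm9 (log2 fold change 1.55, SE 0.13, edgeR adjusted p = 8.3e-07), a chaperone that escorts carrier precursors across the intermembrane space, and Timm29 (log2 fold change 2.09, SE 0.12, edgeR adjusted p = 1.7e-07), a subunit of the carrier translocase of the inner membrane.

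Of the enzymes that use the carriers' substrates, 12 had a single-gene unit and 6 were called across the 5 states, against 26.4% of all single-gene units. The malate dehydrogenases of the malate shuttles were higher in the cold: Mdh1 (log2 fold change 1.08, SE 0.13, edgeR adjusted p = 1.2e-05) in the cytosol and Mdh2 (log2 fold change 1.26, SE 0.15, edgeR adjusted p = 1.1e-05) in the matrix. Alas1, the first enzyme of heme synthesis, which uses glycine, was lower in the cold (log2 fold change -1.66, SE 0.14, edgeR adjusted p = 8.9e-07), whereas the glycine carrier Slc25a38 was higher. Mean CPM of Alas1 was 978 in SA, 387 in IBA, 284 in Ent, 220 in ET and 173 in LT. Its largest fall thus lay between SA and IBA, both warm. Glud1, glutamate dehydrogenase, was lower (log2 fold change -1.07, SE 0.14, edgeR adjusted p = 3.4e-05). Acly, which splits exported citrate, and Oat, which acts on ornithine, were called across the 5 states (edgeR adjusted p = 0.00029 and 8.2e-06) and not between warm and cold. Mean CPM of Acly was 339 in SA and 77.0 in IBA, and that of Oat was 194 in SA and 9.31 in IBA. Between warm and cold 6 of the 12 were called, against 37% of all single-gene units. Of these 3 were higher (Mdh1, Mdh2 and Pank2, against 18.3%) and 3 lower (Alas1, Glud1 and Got1, against 18.7%). Pank2 (log2 fold change 0.40, SE 0.08, edgeR adjusted p = 0.00087) and Got1 (log2 fold change -2.01, SE 0.38, edgeR adjusted p = 0.00051) were named after their values were seen. Got1 thus went the other way from Mdh1 and Mdh2.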

How the data were processed

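GRO-seq was done on nuclei from frozen liver. Per the study's methods and labels, the authors trimmed reads with cutadapt, aligned them to HiC_Itri_2 with BWA, redefined gene bodies with fstitch on reads pooled per state, merged overlapping genes, left out the first 500 nt of each and counted uniquely aligned reads with featureCounts. The count table as deposited holds these counts without normalization, beside the length of each unit in nt. Of 15 labelled samples 14 have a column that was used here. Merged reads from neighbouring genes, and a gene body fixed from these same libraries, can affect levels; pooled scaling makes all changes relative to the other units. RefSeq symbols matched 29 of the 30 members.

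The counts of all 6324 units and 14 libraries were fitted once in edgeR 4.0.16 (R 4.3.3) with TMM scaling and a quasi-likelihood model of the 5 states without covariates. Benjamini-Hochberg adjustment covered all units, with a threshold of 0.001. Standard errors are the log2 fold change divided by the square root of F. No unit was filtered out. Alternatives numbered 29, among them DESeq2 1.42.0 and limma-voom (limma 3.58.1), and library sizes set to uniquely mapped reads (trimmed reads times the uniquely aligned share in the study's alignment table). Depth per library is given with the results; arms of 2 or 3 animals limit the precision. Every single-gene member is named, with values per library for those called and for the highest per kb in each substrate group; merged units are named with state means, and list genes where they were called across the 5 states. Members and lists were chosen with earlier results of these data known. Seasons were read from the study's animal metadata.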

Additional observations from a re-analysis of the deposited data

How the results depend on the processing

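Of 417 recomputed values of called members, 350 kept their side of the threshold, 67 no longer passed it and 0 changed sign. The 350 include values from settings that could not lose a call. An adjusted p of 0.05 is a looser threshold on the main fit, and edgeR's expression filter kept all 6324 units and so repeated that fit. DESeq2 called 8 members across the 5 states (51.4% of all single-gene units), 2 from IBA to Ent (6.99%) and 1 from ET to LT (0.701%). An adjusted p of 0.05 gave 11 across the 5 states (63.3%), 8 from IBA to Ent (16.7%) and 8 from IBA to LT (50.7%). Fitting Ent and ET alone called 0, as it did over all single-gene units. Season as a covariate left 2 from IBA to LT (Slc25a4 and Slc25a29, against 5.78% of all single-gene units). Libraries of a single collection season called 0 between Ent and LT, where 0 single-gene units were called. With a library left out, calls ranged from 0 to 3 from Ent to ET, from 3 to 4 from IBA to LT and from 5 to 8 between warm and cold. The 5 came without LT replicate 1, where Slc25a16, Slc25a28 and Slc25a46 no longer passed. The causes were not tested. The replicate numbers share only a number: the replicate block left 1 call from Ent to ET (Slc25a29), same-numbered libraries correlated in their deviations at r from -0.26 to 0.23 over 26 pairs, and 3 of 14 libraries correlated best with their own number. Groups of 2 or 3 animals, with season partly bound to state, limit what these counts can separate.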
